A study of Mus musculus with 14 samples.

Results

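Immature mast cells grown from bone marrow of the wild-type and Pla2g3 knockout genotypes, as labelled, were compared, on the 7 arrays of cells that had not been cocultured out of 14 arrays in all. The arrays were taken by their titles, 3 of Pla2g3+/+ and 4 of Pla2g3-/- bone marrow-derived mast cells (BMMCs). The cells had been grown in medium with IL-3 for 4 to 6 weeks, and over 97% of them carried Kit and FcεRIα by flow cytometry, per the labels. The other 7 arrays, 4 Pla2g3+/+ and 3 Pla2g3-/-, held BMMCs after 96 h on Swiss 3T3 fibroblasts with 100 ng/ml stem cell factor. They serve for comparison, but they also entered the filter of probes and the estimate of spread behind each SE, interval and p. All 4 groups carried the same strain label, which names a backcross between C57BL/6 and another inbred strain and ends in N3. Which parts of the genome came from which strain in each culture was not tested. The part of Pla2g3 that was deleted, the age of the mice, and whether replicates came from separate mice are not given in the sources used here. The p-values therefore measure the spread between these samples, which may be technical.

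Pla2g3 encodes the group III secreted phospholipase A2. Enzymes of this family cleave membrane phospholipids outside the cell and release fatty acids and lysophospholipids, from which prostaglandins, leukotrienes and lysophospholipid signals are made. Mast cells store proteases, histamine and heparin in granules, make lipid mediators on demand, and complete the filling of their granules only after contact with tissue such as fibroblasts, so BMMCs stand for an early stage. The comparison asks what differs between the genotypes before that step.

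Each level is the log2 signal of a gene minus the 75th percentile of its array, so 0 marks that percentile. Differences are levels on knockout-labelled minus wild-type arrays. A probe is called above background where the scanner software marked it well above background. Wild-type arrays 1 to 3 shared a slide with the knockout-labelled array of the same number, and knockout-labelled array 4 lay on another slide with no wild-type BMMC array. Between 43.0% and 54.2% of 41174 probes were above background on the BMMC arrays, the lowest share being that of knockout-labelled array 3. The lowest level above background on that array was -2.79, against -3.81 to -4.53 on the other BMMC arrays. Levels of all genes correlated at r of 0.968 to 0.986 between arrays of the same number and 0.937 to 0.976 within a genotype, across genes that are not independent replicates. The first principal component, 37.8% of the variance, set both arrays numbered 3 apart from the rest. Xist was at -6.44 and -5.27 on both arrays numbered 2 and between 5.60 and 5.91 on the other 5. Ddx3y and Eif2s3y, from the Y chromosome, were at 1.22 and 2.96 on wild-type array 2 and at 1.07 and 3.04 on knockout-labelled array 2, and low on the other 5. The Y-linked Kdm5d probe also read 4.03 on knockout-labelled array 3, where Eif2s3y was at -4.23 and Ddx3y at -4.86. The mast cell label was borne out by its markers: Kit lay between 6.78 and 7.32, Cpa3 between 7.61 and 8.62 and Fcer1a between 7.92 and 8.57 on the 7 arrays.

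The array reads each transcript with probes of 60 bases. The first 30 bases, 5′ to 3′, of 5 probes are shown, because the results below rest on what these probes recognise: Pla2g3 as the targeted gene, the 3 genes with the lowest p, and the tryptase Tpsab1, which belongs to a cluster of similar genes. Positions are those given in the scanner files for mouse build mm9. That of Prdm16 covers only a few bases in the file, and the place of the probes within exons or UTRs was not analysed here.
Pla2g3: ctccttcctggtgttgctatattctgagag
Olfr303: gacctccagctaagtacaacttcacaattg
Prdm16: gcaactgcatggtatgaaagaggaaatcgg
C1qtnf12: cttctcgggaatgcttttgggtacctagcg
Tpsab1: gacttgaagtatcacaaaggtctcatcaca
The Pla2g3 probe (A_51_P402868) lies on the plus strand at chr11:3393221-3393280. The Olfr303 probe (A_52_P634930) lies on the minus strand at chr7:93543166-93543225 and that of Prdm16 (A_51_P514139), also on the minus strand, at chr4:153690234-153690238. The C1qtnf12 probe (A_51_P425824) lies on the plus strand at chr4:155340584-155340643, and the Tpsab1 probe (A_52_P8459) on the minus strand at chr17:25480640-25480699.

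The targeted gene read higher, not lower, on the arrays labelled knockout. Pla2g3 was at -3.75, -4.70 and -2.96 on wild-type arrays 1 to 3, and at -1.43, -1.33, -1.64 and -1.96 on knockout-labelled arrays 1 to 4. The groups did not overlap, and the probe was above background on 1 of 3 wild-type arrays and on 4 of 4 knockout-labelled arrays. The means were -3.80 ± 0.87 (SD, n = 3) and -1.59 ± 0.28 (SD, n = 4), a difference of 2.21 (SE 0.54, 95% interval 1.06 to 3.37). The unadjusted p of the moderated test in limma was 0.00118, and it was 0.9999 after Benjamini-Hochberg adjustment over 16016 genes, so the gene did not pass. The difference was 2.31, 3.37 and 1.33 on the 3 slides with both genotypes. With normexp background correction in place of the scanner's processed signal it was 0.38, and it stayed above 0 in all alternatives run. That correction was run with an offset of 50 added to each signal, while the 75th percentile of the BMMC arrays was 83.3 to 176. It therefore pulls differences between low signals toward 0 by construction. After coculture the levels ranged from -4.35 to -2.22 in wild-type and from -3.22 to -1.85 in knockout-labelled cells, a difference of 1.15 (SE 0.53, unadjusted limma p of 0.0520). Whether the probe lies in the deleted part was not tested, and a probe outside it checks nothing. Directions below are those of the labels.

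No gene passed the test between the genotypes. At an adjusted p under 0.05, limma called 0 of 16016 genes (0%), and 176 genes (1.1%) had an unadjusted p under 0.05, fewer than the 801 that this threshold lets through by chance. That shortfall depends on the spread that the fit uses, as the counts at the end of this paragraph show, and is no measure of likeness between the genotypes. Of the 176, 49 (0.306% of genes tested) were higher and 127 (0.793%) lower on knockout-labelled arrays, and 104 differed by more than 2-fold. In 677 genes (4.23%) the groups did not overlap, 128 (0.799%) with higher and 549 (3.43%) with lower knockout-labelled values. The median difference of all genes was -0.095, so lower values were the rule under this scaling. The precision behind this is moderate. The median SE was 0.39, and for 7353 genes (45.9%) the 95% interval lay within a 2-fold difference in both directions. Among the 11747 genes above background on all 7 arrays that share was 59.2%. Without knockout-labelled array 3 limma called 2 genes, Olfr303 and Camk2b, and without both arrays numbered 3, a choice made after the principal components were seen, it called 3, the third being the transcript D430006K04. For Camk2b and D430006K04 array 3 stood apart from the other knockout-labelled arrays, so its omission favours their calls. With the replicate number as a block 0 genes were called, and 933 (5.83% of 16003) had an unadjusted p under 0.05. The 7 BMMC arrays alone, a fit whose spread leaves out the cocultured arrays, also gave 0 calls, and 358 genes (2.24%) had such a p.

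**Figure D1:**
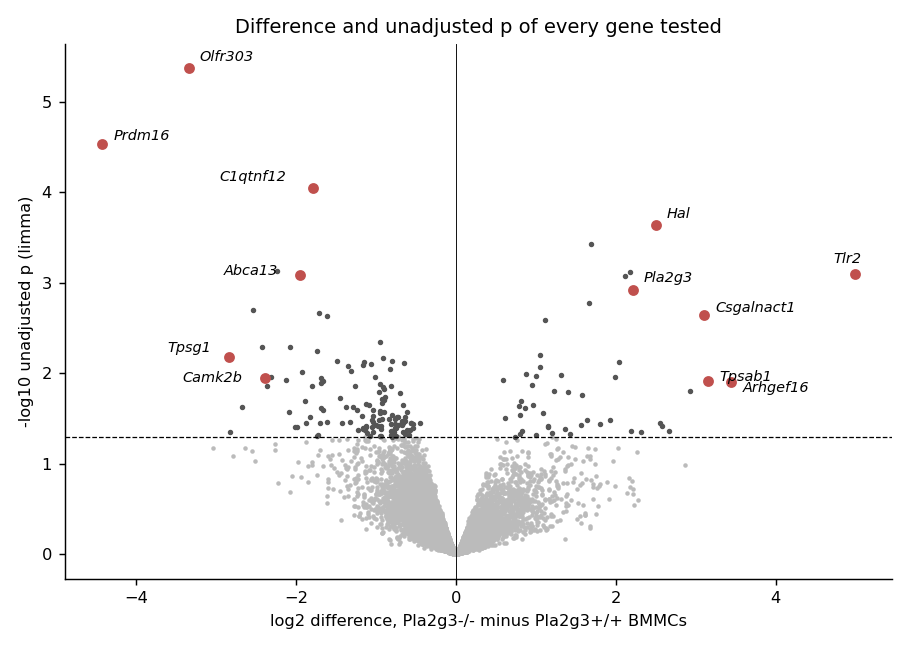
Difference in log2 level (x) against the -log10 of the unadjusted limma p (y) for the 16016 genes, with dark points above the dashed line at a p of 0.05 and 12 genes named. Olfr303 and Prdm16 lie highest on the lower side, and Tlr2 lies farthest to the right at 4.99, but 0 genes passed after adjustment.

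Many of the genes with the lowest p were dim. None of them passed, and the 20 with the lowest p held 9 higher and 11 lower genes, 12 of which were never above background in 1 of the groups. Olfr303, an olfactory receptor gene, was at -2.24, -2.91 and -3.61 on wild-type arrays and at -6.75, -6.47, -5.02 and -6.82 on knockout-labelled arrays, where it was never above background. The groups did not overlap. It was at least 2.11-fold lower, a bound that allows for background only and not for sampling error, as for all such folds below. Its fitted difference was -3.34 (SE 0.44, adjusted p = 0.0680 in limma). Olfr303 passed at adjusted p = 0.00124 with quantile normalization, at 0.0301 with a stricter filter and at 0.00156 without knockout-labelled array 3. These fits take part of their spread from the cocultured arrays, where it was above background on 0 of 7. The stricter filter asked for a probe above background on every array of a BMMC group. Olfr303 met it, and the filter of the reported fit, through the wild-type arrays alone, so that pass adds no support. With the 7 BMMC arrays alone 0 genes passed, and the lowest adjusted p of any gene was 0.166 in limma.

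Prdm16, a zinc finger transcription factor known for its role in brown fat and blood stem cells, was at -1.98, -1.77 and -1.42 on wild-type arrays. It was below background at -6.54, -6.36, -4.94 and -6.76 on knockout-labelled arrays, at least 4.84-fold lower (adjusted p = 0.231 in limma). C1qtnf12, a secreted member of the C1q and TNF-related family, was at 3.48, 4.10 and 3.59 against 1.74, 2.60, 1.72 and 1.68. These levels are well above background on all arrays, do not overlap, and differed by -1.78 (SE 0.32, adjusted p = 0.479). Abca13, an ABC transporter gene, was at -3.38, -3.01 and -2.94 on wild-type arrays, above background on 2 of them, and between -5.96 and -4.63 on knockout-labelled arrays, where it was at least 1.85-fold lower.

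On the higher side, Tlr2, the receptor for bacterial lipoproteins, had the largest difference. It was at -5.32, -1.51 and -5.12 on wild-type arrays and at 0.78, 1.17, 0.81 and 1.26 on knockout-labelled arrays. All knockout-labelled arrays were above the wild-type ones, which differed among themselves by more than 3 log2 units, and wild-type array 2 alone was above background. The difference was 4.99 (SE 1.15, unadjusted p of 7.97e-04, adjusted p = 0.9999 in limma). Hal, the histidine ammonia lyase that opens histidine breakdown, was below background at -5.98, -6.39 and -5.26 on wild-type arrays. It was at -2.57, -3.45 and -4.10 on knockout-labelled arrays 1, 2 and 4, its spot on array 3 being an outlier that was left out, and was at least 1.54-fold higher. Csgalnact1, which starts chondroitin sulfate chains, was below background on wild-type arrays (-5.94, -4.31 and -5.50) and at -1.42, -4.67, -1.11 and -1.37 on knockout-labelled arrays, at least 3.62-fold higher with array 2 inside the wild-type range. Tuft1 and Tmod4, genes best known from tooth enamel and from the thin filaments of muscle, were at least 2.70-fold and 2.47-fold higher, again from levels below background on all wild-type arrays. With normexp background correction, whose offset pulls differences between low signals toward 0, the differences of these dim genes were smaller. They were -0.53 for Olfr303, -0.83 for Prdm16, 0.39 for Hal, 0.49 for Csgalnact1 and 1.86 for Tlr2, whereas C1qtnf12 stood at -1.6. The transcripts 3110068A07Rik and CB587035, also among the 20 lowest p, took the opposite sign there, at -0.11 and -0.12.

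**Figure D2:**
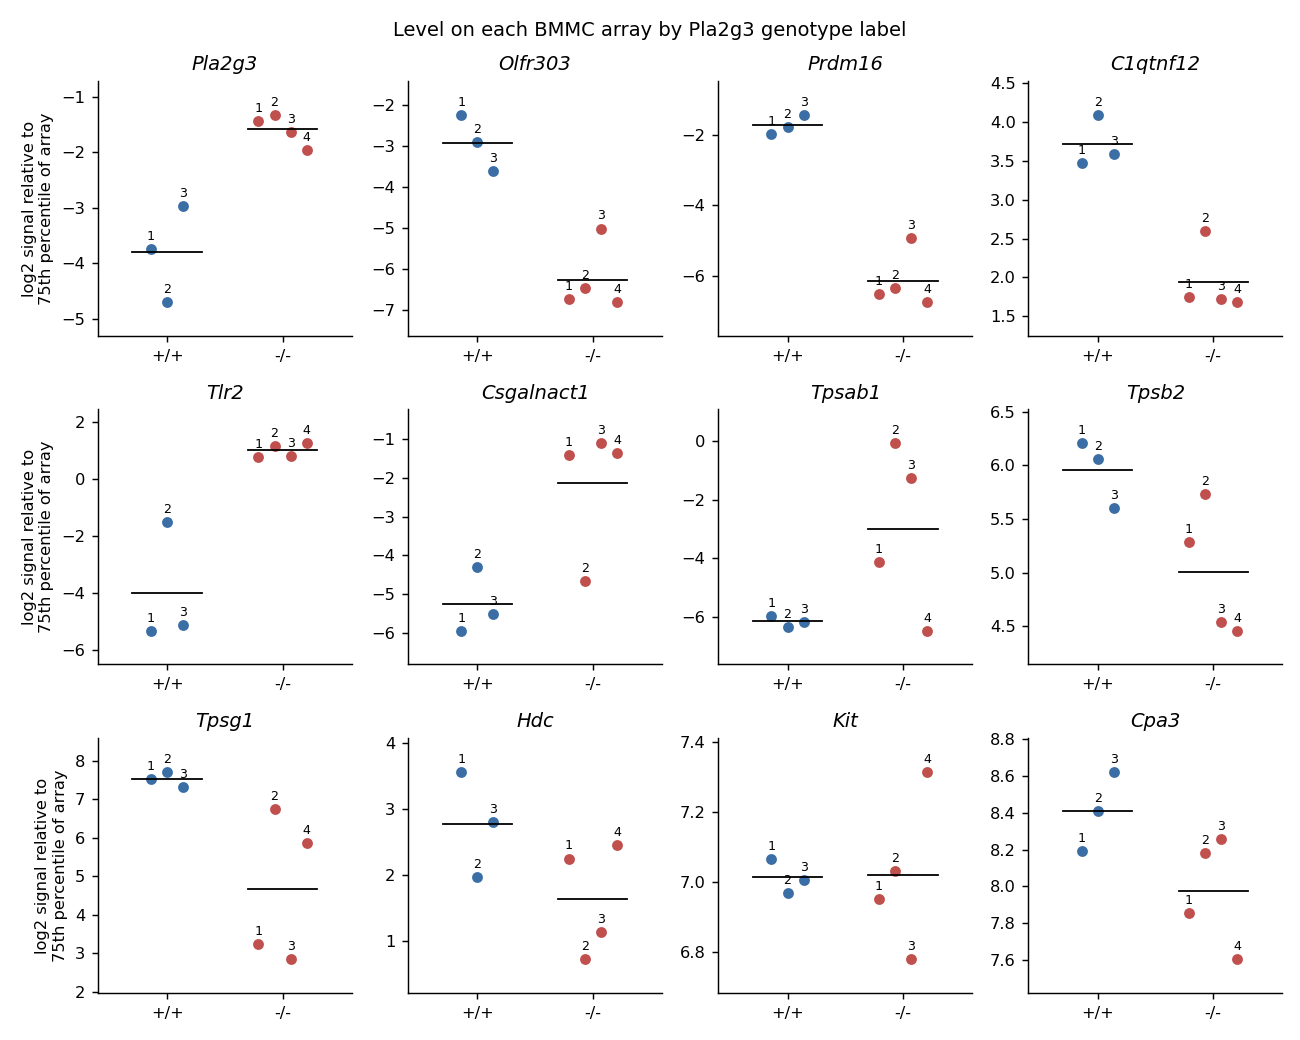
Level on each BMMC array (log2 signal minus the array's 75th percentile) for 12 genes, with each point numbered by replicate and bars at the group means, wild-type in blue and knockout-labelled in red; each panel has its own y range. Pla2g3, Olfr303, Prdm16, C1qtnf12, Tlr2 and Tpsg1 show no overlap of the groups, whereas Kit spans only 6.78 to 7.32 over all 7 arrays.

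The share of genes with a low p differed between chromosomes, and the regions described here were delimited after the values were seen, so they carry no test. On chromosome 11, 6 of 98 genes within 10 Mb of the Pla2g3 probe had an unadjusted p under 0.05 (6.12%), and in 13 (13.3%) the groups did not overlap. Within 30 Mb these were 6 of 205 genes (2.93%) and 13 (6.34%), so the shares depend on the window chosen. Beyond 30 Mb on that chromosome the shares were 0.855% and 3.59%. The 6 genes were Pla2g3, Ccdc117, Camk2b, Tmed4, Gm11992 and Abca13, 2 higher and 4 lower on knockout-labelled arrays. The other probe of Ccdc117 differed by 0.29, against -1.13 on the probe used. Camk2b, a subunit of the calcium and calmodulin-dependent kinase II, was at -2.94, -3.04 and -3.39 on wild-type arrays and at -6.57, -6.28, -2.38 and -6.80 on knockout-labelled ones. Array 3 alone stood at the wild-type level. The difference was -2.39 with all arrays and -0.30 with normexp correction. Without array 3 the knockout-labelled arrays were all below background, and the gene was at least 2.43-fold lower (adjusted p = 7.32e-04 in limma). That omission takes out the 1 knockout-labelled array at the wild-type level, so the call adds no support. Of the 6 genes, 5 had the same sign after coculture.

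At the end of chromosome 4, beyond 150 Mb, 7 of 87 genes (8.05%) had an unadjusted p under 0.05 and 22 (25.3%) did not overlap, against 0.443% and 3.77% of the 903 genes before it. Both directions occurred among neighbours. Prdm16, C1qtnf12 and AI428898 were lower, while Arhgef16, Tnfrsf14, Cptp and Ube2j2 were higher. Cptp, which carries ceramide-1-phosphate between membranes, was at -1.47, -1.65 and -1.69 against -0.35, -0.62, -0.38 and -0.63, with SDs of 0.12 and 0.15. Tnfrsf14, a receptor of the TNF receptor family, was at -3.53, -3.74 and -3.70 against -1.87, -2.10, -2.18 and -2.19, and its other probe differed by 1.41. Arhgef16, a guanine nucleotide exchange factor, was at -6.06, -6.48 and -2.80 against 0.03, -2.04, -3.51 and -1.14, so knockout-labelled array 3 lay below wild-type array 3.

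Chromosome 17 held 31 of the 176 genes (17.6%) but 4.91% of the genes tested. Of 489 genes before 40 Mb, 28 (5.73%) had an unadjusted p under 0.05 and 44 (9%) did not overlap, against 1.01% and 3.03% of 297 genes beyond. Among the 28 were the tryptase genes Tpsg1, Tpsb2 and Tpsab1, the related proteases Prss34 and Prss41, and the histocompatibility genes H2-Ob, H2-M3 and H2-T24. Tedc2, a centriole component, was at 0.22, -0.02 and -0.13 on wild-type arrays and at 1.94, 1.5, 2.93 and 1.90 on knockout-labelled arrays, with no overlap. On chromosome 3, 8 of 238 genes between 80 and 100 Mb (3.36%) had such a p, among them Tlr2, Tmem154, Snx27, Tuft1 and Tmod4, and all 8 had the same sign after coculture, as had 6 of 7 genes at the end of chromosome 4 and 19 of the 28 before 40 Mb on chromosome 17, against 76.1% of all 176 genes.

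**Figure D3:**
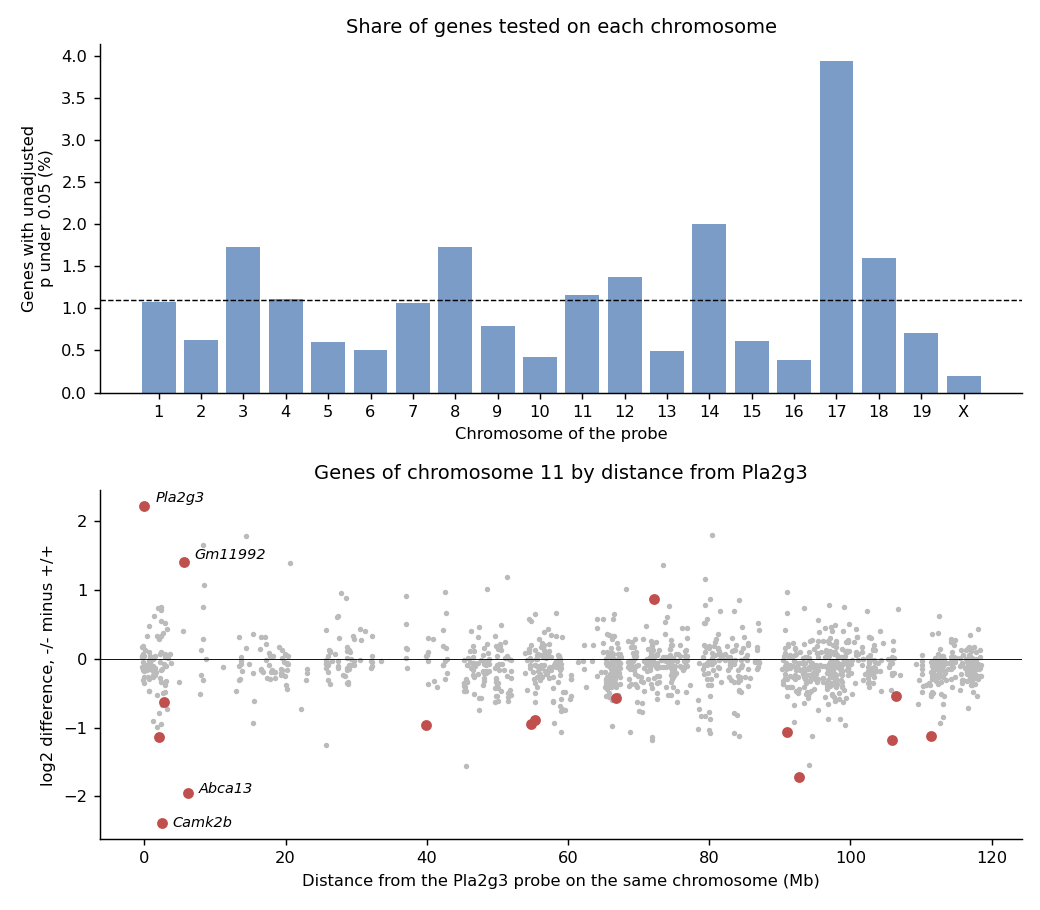
Upper panel, percent of genes tested on each chromosome with an unadjusted limma p under 0.05, the dashed line marking 1.1% over all genes; chromosome 17 is highest at 3.94%. Lower panel, log2 difference of chromosome 11 genes against distance from the Pla2g3 probe in Mb, genes with such a p in red, 6 of them within 10 Mb.

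Among granule proteases, the contents that mast cells release on activation, no gene passed. Of 23 listed genes 21 were measured, and 16 of them (76.2%) had negative differences, near the 66.7% of all genes. An unadjusted p under 0.05, met by 1.1% of all genes, was found for 5 (1 higher, 4 lower), of which Tpsg1, Tpsb2, Tpsab1 and Prss34 are neighbours on chromosome 17. Their median was -0.39, against -0.095 for all genes, and -0.09 with quantile normalization, where the median of all genes was -0.04. Tpsg1, the membrane-anchored gamma tryptase, was at 7.52, 7.71 and 7.31 on wild-type arrays and at 3.23, 6.74, 2.85 and 5.86 on knockout-labelled arrays. The wild-type arrays were close to each other (SD 0.20), while the knockout-labelled ones were widely spread (SD 1.92) and all below them (difference -2.85, SE 0.87, adjusted p = 0.9999 in limma). Tpsb2, a granule tryptase, was at 6.20, 6.06 and 5.60 against 5.29, 5.73, 4.54 and 4.46, so knockout-labelled array 2 reached into the wild-type range (difference -0.95, 95% interval -1.77 to -0.13). Prss34, a protease of mast cells and basophils, was at -1.55, -0.28 and -1.97 against -4.28, -1.69, -3.76 and -3.37. It is also 1 of 4 basophil markers, whose median level was 0.07, 0.74 and 0.18 on wild-type and -0.47, -0.07, -0.90 and -0.92 on knockout-labelled arrays without overlap, and their part in these values was not tested.

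Tpsab1 went the other way. It was below background at -5.95, -6.33 and -6.15 on wild-type arrays, and at -4.13, -0.08, -1.27 and -6.45 on knockout-labelled arrays. The knockout-labelled arrays thus ranged from the wild-type level to nearly that of the 75th percentile, with 3 of 4 above background, and the gene was at least 2.02-fold higher (unadjusted p of 0.0122, adjusted p = 0.9999 in limma). The tryptase genes are close copies of each other. On wild-type arrays the Tpsab1 probe was below background where Tpsb2 and Tpsg1 were high, and whether the Tpsb2 probe also reads Tpsab1 was not tested, so Tpsb2 is reported as uncertain. With normexp correction Tpsab1 differed by 0.38 and Tpsg1 by -2.69.

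The abundant proteases of connective tissue mast cells were measured more tightly. Cpa3, the mast cell carboxypeptidase, was at 8.41 ± 0.21 (SD, n = 3) and 7.98 ± 0.30 (SD, n = 4), and its 95% interval of -1.0 to 0.14 reached a 2-fold lower level. The chymase Cma1 was at 9.0 ± 0.14 (SD, n = 3) and 8.59 ± 0.32 (SD, n = 4), with an interval of -1.02 to 0.20. Srgn, the serglycin core that carries heparin, differed by -0.38 (-1.0 to 0.24) and granzyme B, from Gzmb, by -0.17 (-0.87 to 0.54). The chymase Mcpt4, a marker of mature connective tissue mast cells, varied far more within a genotype. It was at 0.43, 2.73 and 2.15 against 2.61, 2.29, 1.03 and 0.22, and its interval ran from -3.11 to 2.64, so no difference of moderate size could be seen. The spread behind that interval takes in the cocultured cells. The SDs, wild-type first, were 1.20 and 1.11 in BMMCs and 2.97 and 1.66 after coculture.

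Histamine and serotonin genes gave mixed values. Of 18 listed genes 14 were measured, 0 passed, 8 were negative, and the median was -0.23. Over all genes 66.7% were negative, with a median of -0.095. Hdc, the enzyme that makes histamine, was at 3.56, 1.96 and 2.80 on wild-type arrays and at 2.25, 0.73, 1.13 and 2.46 on knockout-labelled arrays. The groups overlapped, and on each of the 3 shared slides the knockout-labelled array was lower, by differences of -1.31, -1.24 and -1.67 (fitted difference -1.14, SE 0.50, unadjusted limma p of 0.0423, adjusted p = 0.9999). The same sign on all 3 slides was found in 29.2% of all genes and in 89.7% of those with an unadjusted p under 0.05, so it adds little. Ddc, the decarboxylase of the serotonin pathway, which lies within 10 Mb of the Pla2g3 probe, was at 1.42, 2.35 and 2.49 against 4.12, 3.60, 3.97 and 3.26. The groups did not overlap on this probe, whose difference was 1.65, and the other Ddc probe differed by 1.54. Tph1, which makes the serotonin precursor, was at 8.85 ± 0.11 (SD, n = 3) and 8.49 ± 0.30 (SD, n = 4), and the vesicle amine transporter Slc18a2 differed by -0.30 (-0.96 to 0.35).

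Among enzymes that make heparin and chondroitin sulfate, 26 of 27 were measured, 0 passed and the median was -0.10, close to that of all genes. For 15 of the 26 the 95% interval lay within a 2-fold difference, as it did for 45.9% of all genes and 59.2% of those above background on all BMMC arrays. Ndst2, the sulfotransferase that mast cell heparin depends on, was at 4.84, 5.36 and 5.09 against 5.04, 5.25, 4.44 and 4.70, a difference of -0.24 (-1.43 to 0.95). Csgalnact1, described above, was the 1 member with an unadjusted p under 0.05, and in Chst12, a chondroitin sulfotransferase, the groups did not overlap at a difference of -0.33 (-0.97 to 0.30).

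No phospholipase A2 gene passed the test. Of 30 listed genes 17 were measured, 9 with positive and 8 with negative differences, with a median of 0.00, and Pla2g3 was the 1 member with an unadjusted p under 0.05. Over all genes 33.3% were positive, with a median of -0.095, and 1.1% had such a p. Pla2g4a, the cytosolic enzyme that feeds arachidonic acid to prostaglandin and leukotriene synthesis, was at 1.48 ± 0.28 (SD, n = 3) and 1.6 ± 0.09 (SD, n = 4), a difference of 0.12 (-0.89 to 1.14). Pla2g6, the calcium-independent enzyme, was at -1.03 in both groups with an interval of -0.58 to 0.59. Pla2g7, which degrades platelet-activating factor, was at 3.27, 3.61 and 2.75 against 4.68, 3.56, 4.55 and 4.26 (difference 1.05, -0.39 to 2.49). Knockout-labelled array 2 alone was inside its wild-type range. Pla2g12a did not overlap, at -0.74, -0.63 and -0.28 against -1.35, -0.75, -0.83 and -1.26.

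Genes of the prostanoid and leukotriene pathways had 0 members with an unadjusted p under 0.05, which 1.1% of all genes met. Of 17 measured prostanoid genes 5 were positive, with a median of -0.18, and of 11 leukotriene genes 2 were positive, with a median of -0.32. Over all genes 33.3% were positive, with a median of -0.095. Hpgds, the prostaglandin D synthase of mast cells, was at 0.48, 0.78 and 0.42 against 0.95, 1.06, 0.42 and 0.62. Its interval of -0.36 to 0.76 lay within 2-fold. Ptgs1, the constitutive cyclooxygenase, differed by -0.65 (-1.98 to 0.68), the inducible Ptgs2 was above background on 0 of 7 arrays, and Ptgds and the receptor Ptgdr were too dim to be tested. Ptgir, the prostacyclin receptor, was at 0.60, 0.37 and 0.21 against -0.34, -1.09, -0.50 and 0.27. Alox5, which starts leukotriene synthesis, was at 7.71, 7.70 and 7.74 against 7.56, 7.65, 7.43 and 7.12, without overlap but at a difference of only -0.27 (-1.07 to 0.52). Its other probes differed by -0.17 and 0.03. The leukotriene C4 synthase Ltc4s differed by -0.52 (-1.61 to 0.57) and the 5-lipoxygenase activating protein gene Alox5ap by -0.32 (-0.98 to 0.33). Of 24 measured genes of lysophospholipid signalling and remodelling, 9 were positive and 0 had such a p (median -0.13).

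The receptors and transcription factors that define mast cells gave small differences, several with narrow intervals. Kit, the stem cell factor receptor, was at 7.07, 6.97 and 7.01 on wild-type arrays and at 6.95, 7.03, 6.78 and 7.32 on knockout-labelled arrays. The 95% interval of its difference, -0.65 to 0.66, leaves room for at most a 1.58-fold difference. The IgE receptor chains had differences of -0.32 for Fcer1a (-1.02 to 0.39), -0.20 for Ms4a2 (-1.15 to 0.75) and -0.48 for Fcer1g (-1.12 to 0.15). Fcer1a and Ms4a2 did not overlap between the groups, and with quantile normalization Fcer1a stood at 0.02. Among transcription factors, Gata1 differed by 0.12 (-0.38 to 0.63), Gata2 by -0.22 (-0.93 to 0.50), Mitf by -0.18 (-0.80 to 0.44) and Spi1 by -0.12 (-0.86 to 0.61). Of 36 genes of IgE receptor and Kit signalling and 26 transcription factors, 0 had an unadjusted p under 0.05, and 20 and 14 had intervals within 2-fold. Over all genes 1.1% had such a p and 45.9% such an interval. Among genes above background on all 7 arrays 59.2% had such an interval, so these counts are no trait of the lists. Of 38 measured surface receptors, Tlr2 was the 1 with an unadjusted p under 0.05, and of 19 IL-3, Kit and STAT5 pathway genes there was none.

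**Figure D4:**
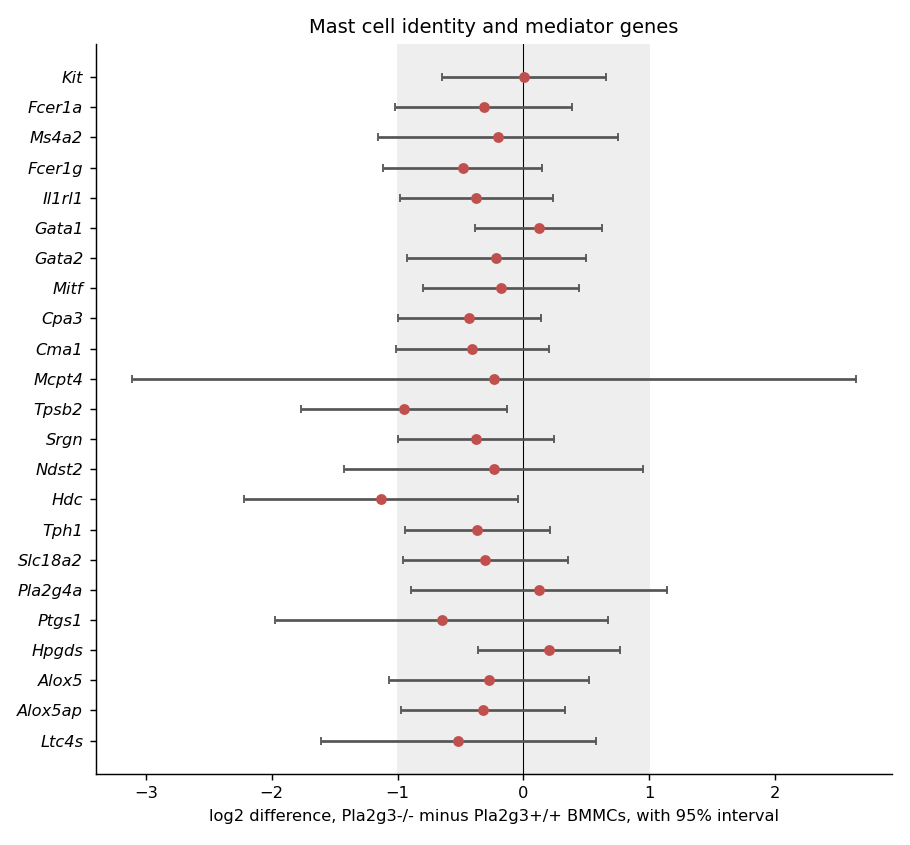
Difference in log2 level, knockout-labelled minus wild-type BMMCs, with the 95% interval from limma, for 23 genes of mast cell identity, granules and lipid mediators; the grey band marks 2-fold in either direction. Kit, Gata1, Gata2, Mitf, Tph1, Slc18a2 and Hpgds lie within the band, Tpsb2 and Hdc have intervals that end below 0, and Mcpt4 runs from -3.11 to 2.64.

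Other programmes also gave no passing gene. Over all genes 33.3% had a positive difference, and the median was -0.095, or -0.04 with quantile normalization. Of 31 cell cycle genes 20 were positive, with a median of 0.07. Of 29 glycolysis and hypoxia genes 2 were positive, with a median of -0.26 that became -0.10 with quantile normalization. Aldoa and Ldha, enzymes of glycolysis, differed by -0.38 and -0.41 with intervals that held 0. Cholesterol synthesis genes had a median of -0.07, interferon response genes -0.11 and endoplasmic reticulum stress genes -0.13. Of 28 cytokine and chemokine genes 8 were positive (median -0.08), and Ccl2, a monocyte attractant, was at 7.97, 8.05 and 8.04 against 7.55, 7.51, 7.80 and 6.82 without overlap. Lysosome and exocytosis genes had a median of -0.09 over 36 members. Among immediate early genes (median -0.31), Btg2, an antiproliferative gene, had a difference of -1.74, and its other probes gave -1.74 and -1.12. Among oxidative and glutathione genes, Gstm1, a glutathione transferase, was at 6.11, 5.85 and 5.79 against 4.70, 5.51, 4.71 and 5.04 without overlap, and its neighbour Gstm3 at 3.54 ± 0.19 (SD, n = 3) and 2.72 ± 0.40 (SD, n = 4). Transferases of this family are near copies, so their signals may not be separate.

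Markers of other cell types gave 0 passing genes. Of 24 measured fibroblast markers 4 were above background on all 7 arrays and 14 on none, and their median level per array ran from -6.13 to -5.70 on wild-type and -6.53 to -4.85 on knockout-labelled arrays. The median of 13 macrophage markers was -3.60, -0.45 and -2.47 on wild-type arrays and -1.58, -2.63, -2.53 and -2.37 on knockout-labelled arrays. That of 4 neutrophil markers was -4.57, -0.37 and -3.14 against -5.05, -3.33, -3.21 and -5.11, so wild-type array 2 stood highest in both lists. Cathepsin S, from Ctss, was at 4.62 on wild-type array 2 and at -3.30 and -5.41 on the other 2, and at 2.55, 1.96, -3.03 and 1.97 on knockout-labelled arrays. Wild-type array 2 was also the highest wild-type array for Tlr2 and for the annexin Anxa1 (-4.52, 1.22 and -3.08, against 0.08, 0.71, 0.28 and -0.84). The part of these cells in those values was not tested, and in bulk RNA fewer cells of a type and less RNA per cell cannot be told apart. In each of the macrophage, neutrophil, dendritic and lymphocyte lists 0 genes had an unadjusted p under 0.05, which 1.1% of all genes met. In the basophil list 1 of 4 had one, Prss34, and Mcpt8, the basophil protease, was between -3.06 and -2.18 on wild-type and between -4.94 and -2.68 on knockout-labelled arrays.

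After coculture, on other arrays, part of the differences of BMMCs were met again. The contrasts share no array, although they share the estimate of spread from 1 fit, and whether the cultures came from the same mice is not stated. Between the cocultured groups limma called 0 of 16016 genes (0%), 604 (3.77%) had an unadjusted p under 0.05, and 276 (1.72%) did not overlap. Of the 176 BMMC genes 134 (76.1%) had the same sign after coculture, against 51.4% of all genes. In 23 of the 176 (13.1%) the sign was the same and the unadjusted p was again under 0.05, against 2.62% of all genes, and 7 of the 23 were higher and 16 lower. The 677 genes without overlap in BMMCs had the same sign in 43.3%. The cocultured groups also differed in other ways. The median level of the fibroblast markers was 1.04, 2.51, -2.29 and 0.81 on wild-type and -2.44, -1.37 and 0.41 on knockout-labelled arrays, and Eif2s3y was between 2.55 and 3.30 on the wild-type arrays and at -5.58, -6.37 and 2.82 on the knockout-labelled ones. Their part in the values after coculture was not tested.

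C1qtnf12 was at 2.62 in wild-type (2.18 to 3.31) and 1.49 in knockout-labelled cocultured cells (1.24 to 1.69), a difference of -1.13 (unadjusted p of 0.00359 in limma) with no overlap. Abca13 was above background on 3 of 4 wild-type and 0 of 3 knockout-labelled cocultured arrays and at least 2.43-fold lower there (unadjusted p of 0.00142 in limma), after at least 1.85-fold in BMMCs. Slc16a7, a monocarboxylate transporter, differed by -1.27 in BMMCs and -1.68 after coculture. Tmem154, a membrane protein gene of chromosome 3, was at 0.79, -0.59 and 0.83 against 2.16, 0.93, 1.66 and 2.05 in BMMCs, and differed by 2.04 after coculture. Gstm1 differed by -0.93 and -0.96, Tedc2 by 2.04 and 1.5, Arhgef16 by 3.45 and 2.72, the collagen receptor Ddr1 by -1.83 and -1.69, the phosphatase Dusp4 by 1.56 and 1.58, and the lymphatic growth factor Vegfc by 0.58 and 0.56. After coculture Ddr1 was at 1.63, 2.68, 0.04 and 2.07 on wild-type and 0.17, -1.76 and 1.35 on knockout-labelled arrays, and its highest array in each group was that of the fibroblast markers. Ddc, whose BMMC difference had an unadjusted p of 0.0659, differed by 2.42 after coculture (unadjusted p of 0.0115 in limma). For all of these genes the adjusted p after coculture was at least 0.815.

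Other differences of BMMCs were smaller after coculture or could not be measured there. Olfr303 and Hal were above background on 0 of the 7 cocultured arrays, so for them no difference could be measured there. Olfr303 was between -6.45 and -6.19 in wild-type and between -6.83 and -5.77 in knockout-labelled cocultured cells. Csgalnact1 differed by 0.17 and Tpsab1 by 0.25, the last from levels of 3.98 to 4.85 in wild-type and 4.40 to 4.81 in knockout-labelled cells. Tlr2 differed by 0.61, Tpsg1 by -0.56 and Tpsb2 by 0.07. The test of whether the genotype difference itself differed before and after coculture called 0 of 16016 genes (0%), and 130 (0.812%) had an unadjusted p under 0.05, 29 of them among the 176, which were chosen by 1 term of this contrast, so that count supports nothing. Among the genes described, chosen for their low p in BMMCs, that unadjusted limma p was 1.32e-04 for Olfr303 and 0.00217 for Hal. Neither was above background after coculture. For Prdm16 it was 0.00334 and for Cptp 0.00417, and each of these genes had an adjusted p of 0.996 in limma. Cptp differed by 1.11 before and -0.35 after coculture. Without both arrays numbered 3 that test called 2 genes, D430006K04 and Olfr303, the latter not above background after coculture.

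**Figure D5:**
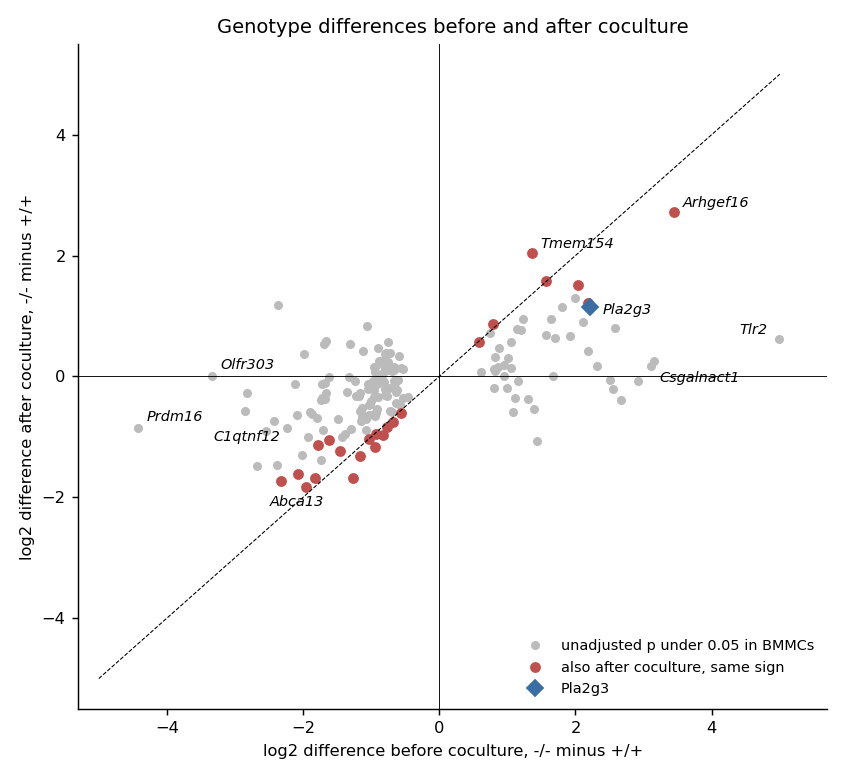
Log2 difference after coculture (y) against that before it (x) for the 176 genes with an unadjusted p under 0.05 in BMMCs, the 23 genes that met this again with the same sign in red, Pla2g3 as a blue diamond, the dashed line marking equal differences. C1qtnf12, Abca13 and Arhgef16 lie near that line, and Olfr303, Tlr2 and Csgalnact1 lie near a difference of 0 after coculture, where Olfr303 was not above background.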

How the data were processed

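RNA (450 ng per array) was labelled and read on single-colour Agilent mouse arrays, 14 in all, 7 of them of BMMCs. Spot intensity was extracted by the authors with Agilent Feature Extraction 9.5.1.1, per the file headers. Other deposited columns, the scanner's flags and annotation, carried no values that were tested, and the deposited table of selected probes served only as a list of genes. Control and outlier spots (74 to 326 outliers per array) were removed, the log2 of the processed signal was taken and averaged over the spots of a probe, and each array's 75th percentile was subtracted. Of 41174 probes, 24836 were named by accession in the RefSeq table of GRCm38.p6, 7860 by symbol and 8478 by the file. The filter asked for 3 arrays or more above background and passed 23625 probes, of which 32 were dropped for missing values, and each of the 16016 genes was read from its probe of highest mean level. Where a group was never above background, folds are against the higher of each array's own value and its lowest signal above background, and are given as at least. They leave out sampling error.

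The groups were compared with limma 3.58.1 in R 4.3.3, 1 fit of 14 arrays in 4 groups, two-sided, with Benjamini-Hochberg adjustment and calls at an adjusted p under 0.05. The script was tested on simulated data. The number of arrays limits the precision. Deviations from the group means correlated at r of 0.197, 0.497 and 0.490 for arrays numbered 1 to 3, so the numbers were taken to pair the arrays, a pairing that comes from this check, the shared slides and the matched Y-linked signal. Wild-type array 1 also deviated with knockout-labelled array 4 (r = 0.358). The alternatives were other scalings, filters, probe rules, blocks and omissions of arrays. The genes named were Pla2g3, 19 mast cell genes, the 20 genes with the lowest p, the 2 lowest p of each list, the genes that table selects and sex-linked genes; the others, and all regions, were chosen after their values were seen. The comparison and the 30 lists were chosen with earlier results of these data known.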

Additional observations from a re-analysis of the deposited data

Results flagged for a closer look

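On the 4 knockout-labelled arrays, 153 named genes were examined for 1 array far from the others, by the gap to the nearest array over the range, against Dixon's 95% critical value. Chance alone flags about 1 in 20, and 9 were flagged. On array 2, C1qtnf12 was at 2.60 against 1.68 to 1.74 on the other 3, Csgalnact1 at -4.67 against -1.42 to -1.11, and Xist at -5.27 against 5.60 to 5.91. On array 3, the transcript ENSMUST00000071189 was at -4.52 against -6.75 to -6.44, Camk2b at -2.38 against -6.80 to -6.28, Ltc4s at 1.23 against 1.61 to 1.68, D430006K04 at -4.97 against -1.19 to -0.43, and Ctss at -3.03 against 1.96 to 2.55. On array 1, Ccdc117 was at -0.49 against -0.04 to -0.01. Of the 9, 5 were on array 3, 3 on array 2, 1 on array 1 and 0 on array 4.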

How the results depend on the processing

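The count of called genes was 0 in the reported fit and 1 with quantile normalization and with the filter for probes above background on every array of a BMMC group (Olfr303 in both). Olfr303 met that filter through the wild-type arrays alone. The count ranged from 0 to 2 without 1 array, and was 3 without both arrays numbered 3 (1 higher, 2 lower), an omission chosen after the data were seen, where the test of the difference before against after coculture called 2. With the replicate block the count was 0, with 933 genes at an unadjusted p under 0.05. That number was 176 in the reported fit and lowest at 63 with normexp correction. Pla2g3 kept its direction and did not pass in 18 alternatives, with differences from 0.38 (normexp) to 2.65, 1.77 to 2.63 without 1 array, and adjusted p from 0.719 up. Of 2721 values of single genes under alternatives 64 moved by more than the replicate SD and 7 passed the test, these being Olfr303, Camk2b and D430006K04. Of 538 list medians 0 moved by more than the SD of the list's median between arrays, a wide measure, and those of granule proteases and glycolysis genes moved toward 0 with quantile normalization, to -0.09 and -0.10. The replicate block changed no call. For the values that moved, the cause was not tested. Signals near background limit Olfr303, Prdm16, Hal, Tpsab1 and Pla2g3 most. All 5 differences were smaller with normexp correction, but its offset shrinks such differences by construction, so this adds no support.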
